A study of Mus musculus with 78 samples.

Results

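Liver RNA of 8 wild-type (Npc1+/+) female mice was compared between 3 and 5 weeks of age. The 8 arrays were chosen by their sample titles, 4 mice per age, from the 78 arrays of a study of Npc1 deficiency in mouse liver, and no measured value entered the choice. The mice belonged to the BALB/cNctr-Npc1m1N/J line, labelled BALB/c. They were Npc1+/+ littermates of Npc1-/- mice, born to heterozygous parents and genotyped by PCR, and the labels name no treatment and call them asymptomatic. Pups were weaned at 3 weeks and then ate normal chow and drank water freely, so weaning and the start of puberty fall in or next to the interval compared. Whether the 3-week pups were taken before or after separation from the dam is not given in the sources used here. The labels call the 4 samples of an age biological replicates, taken from 4 livers, without naming litters. For comparison, 4 Npc1-/- mice of 3 weeks (labelled pre-symptomatic) and 4 of 5 weeks (labelled post-symptomatic) from the same crosses were used, which share no array with the wild-type groups.

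Suckling mice live on milk, which is rich in fat and poor in carbohydrate and iron, and weaned mice live on starch-rich chow that holds more iron. In the liver this change of diet is known to turn on the making of fatty acids and cholesterol from carbohydrate and to end reliance on milk fat. Over the same weeks growth hormone begins to be secreted in a pattern that differs between the sexes, and many liver genes for steroid and drug metabolism take on male or female levels. The liver also loses its remaining fetal programme, its blood-forming cells and much of its growth.

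Values are the deposited log2 expression values, so a difference of 1 is a doubling. A gene counted as higher or lower when its adjusted p was under 0.05 in limma's test over 12638 genes, in a fit of all 48 arrays of the age series. At 5 weeks 828 genes (6.55% of those tested) had changed in wild-type liver, 356 higher (2.82%) and 472 lower (3.73%). These shares over all genes are the background for each list count given below. The changes reached at least 2-fold in 67 of the higher and 53 of the lower genes, and the median change of all genes was -0.00312. In 1526 genes (12.1%) the 4 values of one age lay wholly above the 4 of the other. Array medians of the 8 mice ran from 5.47 to 5.59, and these values carry no detection calls. A level below 5.54, the median of all values, may lie at background, and a change from such a level is a lower bound.

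The 3-week arrays formed 2 close pairs. The SD of the log2 difference between arrays was 0.186 for mice 1 and 2 and 0.167 for mice 3 and 4, against 0.258 to 0.281 across these pairs. It was 0.236 to 0.312 among the 5-week mice. Mice 1 and 2 also carried RNA of the exocrine pancreas. The mean of 24 acinar cell genes, which encode digestive enzymes, was 7.77 and 7.80 in these mice, 4.87 and 4.90 in mice 3 and 4, and 5.79, 4.99, 4.88 and 4.91 in the 5-week mice. In the Npc1-/- mice it was 4.68 to 4.97 at 3 weeks, and 4.79, 4.86, 4.81 and 5.69 at 5 weeks. The 3 acinar genes that passed as lower in wild-type liver at 5 weeks were Pnliprp1 (-2.28), Ctrl (-1.59) and Cela2a (-1.10). None of 15 passed without 3-week mice 1 and 2. Without 3-week mouse 3 or 3-week mouse 4, 14 of the 15 were lower, and without 5-week mouse 1, 10 were. None passed with only the compared groups in the fit. Pnliprp1 (3-week mouse 1 or 2 or 5-week mouse 2 or 4), Ctrl (3-week mouse 1 or 2 or 5-week mouse 2, 3 or 4) and Cela2a (3-week mouse 1 or 2 or 5-week mouse 4) did not pass when the mouse named in brackets was left out. Every result was therefore computed again without these 2 mice, and once more with each 3-week pair averaged into 1 sample. Without them 577 genes (4.57%) passed, 226 higher (1.79%) and 351 lower (2.78%), 473 of them among the 828. With the pairs averaged 320 (2.53%) passed, all among the 828, 134 higher (1.06%) and 186 lower (1.47%). Averaging keeps the 3-week mean, so the size and direction of each change could not move. Only the calls could, and with fewer 3-week samples a subset of the 828 was the likely outcome. Hepatocyte identity genes averaged 12.37 to 12.54 at 3 weeks and 12.20 to 12.34 at 5 weeks, so each sample held liver. These levels cannot show that no other tissue was present. The mean of 14 skeletal muscle genes was 5.93 in 3-week mouse 4 and at most 5.47 in every other mouse of these ages and genotypes. None of 8 tested muscle genes passed in wild-type liver, with or without 3-week mice 1 and 2. Mouse 4 stays in the fit without mice 1 and 2, and the part of muscle RNA in its other values was not tested. Npc1 itself was 9.63 to 10.25 in the 8 wild-type mice and 8.31 to 9.03 in the 8 Npc1-/- mice of these ages, and its wild-type change of 0.23 ± 0.16 (SE) did not pass (adjusted p = 0.482).

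**Figure D1:**
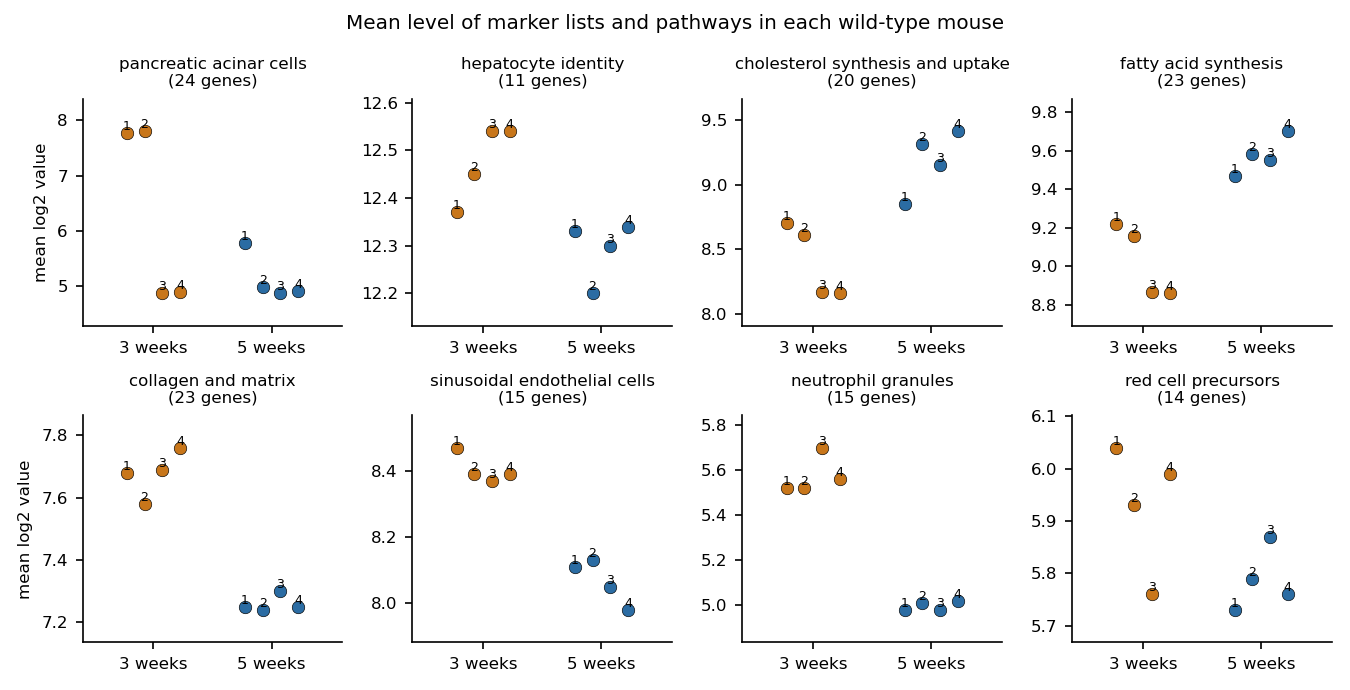
Mean log2 value of 8 gene lists in each wild-type mouse, by age, with the mouse number above each point. 3-week mice 1 and 2 stand at 7.77 and 7.80 for pancreatic acinar genes. The hepatocyte, collagen, sinusoidal endothelial and neutrophil lists are lower in every 5-week mouse than in every 3-week mouse.

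The largest rise was that of Hamp, the gene of hepcidin, the liver hormone that blocks iron export from gut cells and macrophages. Its log2 values at 3 weeks were 5.62, 5.47, 3.88 and 3.98 in mice 1 to 4, and at 5 weeks 10.34, 10.43, 10.74 and 10.68. The 5-week values stood close together and far above all 3-week values, which lay near or below 5.54, the median of all values. The change was 5.81 ± 0.36 (SE, adjusted p = 1.66e-15), at least 56.2-fold, and 6.62 without 3-week mice 1 and 2. Hamp2, the neighbouring copy of the hepcidin gene, was 6.97, 6.60, 6.77 and 5.89 at 3 weeks and 8.74, 8.60, 9.19 and 9.32 at 5 weeks. It rose by 2.41 ± 0.29 (adjusted p = 1.35e-07). The copies are similar enough that a probe set for one may also detect the other, so their values are not independent. The 250 bases before the start of each gene are shown because both genes rose together (RefSeq, GRCm38.p6, both on the minus strand, 5′ to 3′). Hamp lies at chr7:30944030-30944279 and Hamp2 at chr7:30924182-30924431.
Hamp: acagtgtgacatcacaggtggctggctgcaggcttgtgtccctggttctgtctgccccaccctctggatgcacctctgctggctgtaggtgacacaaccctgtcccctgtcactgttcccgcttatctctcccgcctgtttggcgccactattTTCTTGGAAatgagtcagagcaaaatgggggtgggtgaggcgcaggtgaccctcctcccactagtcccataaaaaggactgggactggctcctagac
Hamp2: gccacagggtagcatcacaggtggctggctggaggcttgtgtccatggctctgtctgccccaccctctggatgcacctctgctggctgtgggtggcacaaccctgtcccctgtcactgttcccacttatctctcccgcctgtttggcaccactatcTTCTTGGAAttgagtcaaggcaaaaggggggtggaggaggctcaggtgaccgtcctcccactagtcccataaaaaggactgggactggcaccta
The 2 windows had 230 of 250 bases in matching blocks, with a longest shared run of 40 bases. Capitals mark a match to TTCNNNGAA, a pattern that STAT factors can bind and that reads the same on both strands, found in 7.0% of 32851 promoter windows of this length. The search in these 2 windows was made after their values were seen, and a match is a description of the letters.

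Tfrc, the transferrin receptor through which cells take up iron, moved the other way. It was 9.20, 9.04, 9.48 and 9.57 at 3 weeks and 8.14, 7.53, 6.94 and 8.38 at 5 weeks, with a wider spread at 5 weeks. The fall was -1.58 ± 0.29 (adjusted p = 0.000213). Hmox1, the enzyme that releases iron from haem, also fell, by 0.57 (adjusted p = 0.00153). Of 17 tested genes of iron and haem handling, 4 were higher and 2 lower, with a median change of 0.18. The other higher genes were Bmp6 (0.37, adjusted p = 0.0128), the signal from endothelial cells that induces hepcidin, and Tfr2 (0.26, adjusted p = 0.0214), an iron sensor of hepatocytes named after its value was seen. Bmp6 and Tfr2 did not pass without 3-week mice 1 and 2, when Hamp and Hamp2 were higher and Tfrc and Hmox1 lower. Bmp6 (3-week mouse 4 or 5-week mouse 3 or 4) and Tfr2 (3-week mouse 2 or 3 or 5-week mouse 2 or 3) did not pass when the mouse named in brackets was left out. The iron exporter Slc40a1 was 10.37 to 10.91 at 3 weeks and 10.68 to 11.06 at 5 weeks (adjusted p = 0.414), and the ferritin gene Fth1 differed by 0.01 ± 0.06 (adjusted p = 0.942).

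Genes of fatty acid synthesis rose, led by Scd1, the desaturase that makes monounsaturated fatty acids. Scd1 was 7.97, 8.17, 6.81 and 6.77 at 3 weeks and 11.80, 10.79, 11.30 and 11.05 at 5 weeks. It rose by 3.81 ± 0.27 (14.0-fold, adjusted p = 9.39e-14). Of 22 tested genes of the pathway 9 were higher and 1 lower, with a median change of 0.49 against -0.00312 over all genes. Elovl6, which lengthens fatty acids, rose by 1.23 (adjusted p = 0.00451), and Acss2 and Aacs, which activate acetate and acetoacetate, rose by 1.22 (adjusted p = 1.59e-05) and 1.17 (adjusted p = 0.00203). Fasn, the fatty acid synthase, named here after its values were seen, was 8.69 to 9.29 at 3 weeks and 9.72 to 10.11 at 5 weeks (0.94, adjusted p = 0.0282). Acly (0.59, adjusted p = 0.0943), Acaca (0.18, adjusted p = 0.551) and Srebf1 (0.24, adjusted p = 0.711), the factor that induces the pathway, did not pass. The gene that fell was Lpin1, a phosphatidate phosphatase and coactivator induced by fasting (-1.24, adjusted p = 0.0147). Fasn (3-week mouse 3 or 4 or 5-week mouse 3 or 4) and Lpin1 (5-week mouse 2 or 3) did not pass when the mouse named in brackets was left out. Averaging the 3-week pairs left 5 genes higher and none lower.

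Cholesterol synthesis genes rose together, and 12 of 20 tested genes of synthesis and uptake were higher and none lower. Their median change was 0.78. Sqle, the squalene epoxidase, was 6.88, 6.75, 5.95 and 5.52 at 3 weeks and 7.51, 8.04, 7.92 and 8.39 at 5 weeks (1.69 ± 0.36, adjusted p = 0.00169). Idi1, which makes the activated isoprene unit, was 8.72, 8.81, 7.78 and 7.73 and then 9.13, 9.90, 9.85 and 10.26 (1.52 ± 0.29, adjusted p = 0.000377). In both genes the ages did not overlap, and 3-week mice 1 and 2 lay nearer the 5-week mice than mice 3 and 4 did. Cyp51 (1.24, adjusted p = 0.0123), Msmo1 (1.12, adjusted p = 0.0125) and Nsdhl (1.11, adjusted p = 0.00221), which act after squalene, rose as well. Srebf2, the factor that induces these genes, differed by -0.10 ± 0.11 (adjusted p = 0.72), and Hmgcs1 by 0.12 ± 0.27 (adjusted p = 0.875). The list's mean level was 8.70, 8.61, 8.17 and 8.16 in the 3-week mice and 8.85, 9.31, 9.15 and 9.41 in the 5-week mice. The higher pair at 3 weeks is the pair with acinar RNA, whose part in this was not tested. Without it 12 of 20 genes also passed, with a median of 1.01. Cyp51 (3-week mouse 3 or 4 or 5-week mouse 4) and Msmo1 (3-week mouse 3 or 4 or 5-week mouse 2 or 3) did not pass when the mouse named in brackets was left out. The count also moved with single mice and with the pairs: it was 6 without 3-week mouse 3, 7 without 3-week mouse 4 or 5-week mouse 4, and 5 with the pairs averaged. Sterol response letters (TCACNCCAC, both strands) stood in the window of 1 of 19 promoters of the list (5.3%), that of Hmgcs1, and in 1.1% of all promoters.

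**Figure D2:**
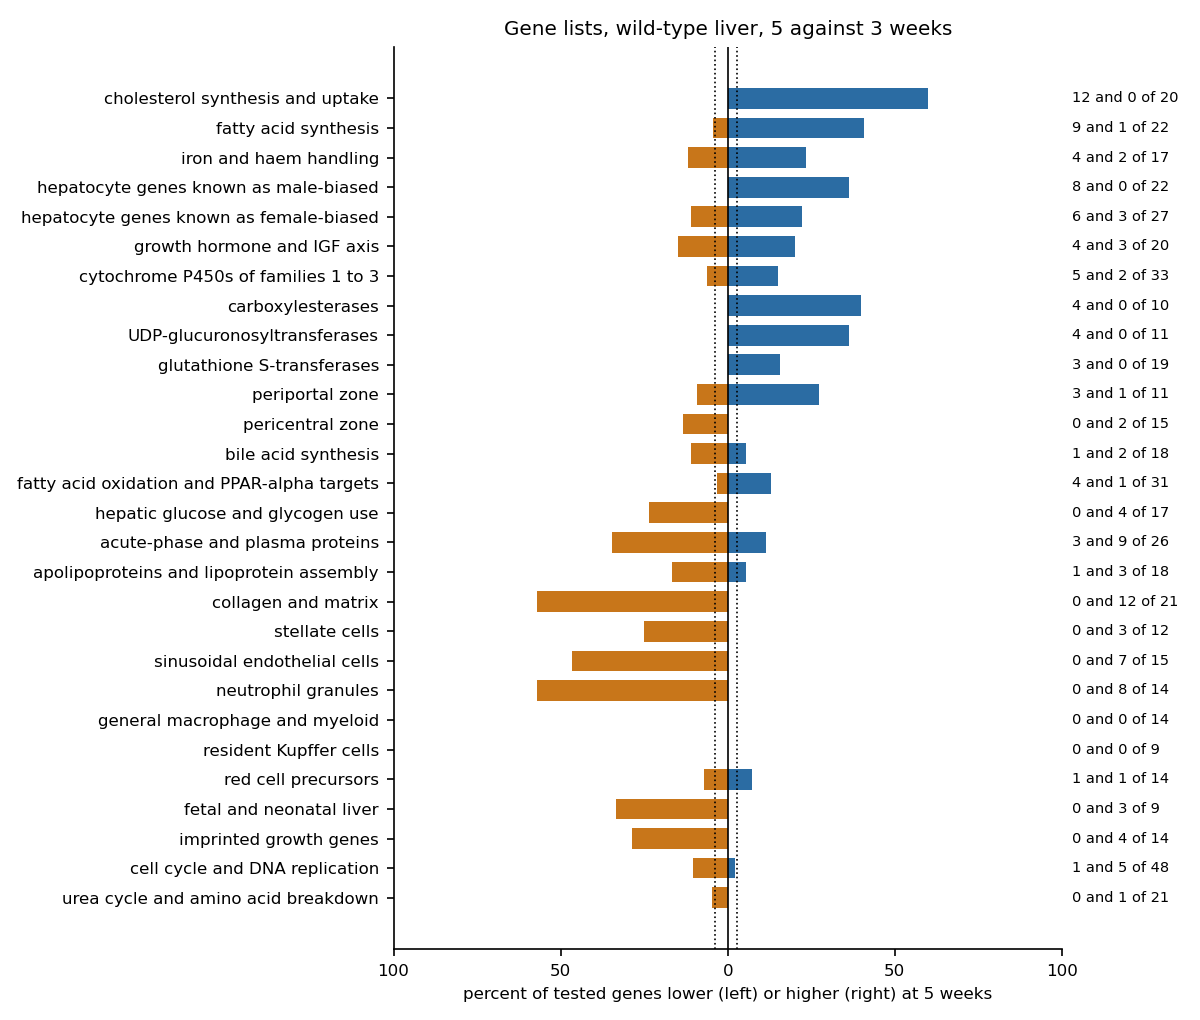
Percent of tested genes in each list that were higher (right, blue) or lower (left, orange) at 5 weeks in wild-type liver, with both counts at the right. Dotted lines mark 2.82% higher and 3.73% lower, the shares over all genes. The cholesterol list has 12 of 20 genes higher, and the collagen list 12 of 21 lower.

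A few genes of glycogen handling fell, as did Lpl. Ppp1r3c, which targets a phosphatase to glycogen and promotes its synthesis, was 9.81, 9.82, 9.73 and 9.25 at 3 weeks and 8.29, 6.85, 7.50 and 6.36 at 5 weeks. Its fall of -2.40 ± 0.33 (adjusted p = 1.96e-06) went from 4 similar values to 4 that spread widely. Of 17 tested genes of glucose and glycogen use 4 were lower and none higher, with a median of -0.12. The other 3 were Ppp1r3b (-0.76, adjusted p = 0.0157), a second glycogen targeting subunit, Pygl (-0.44, adjusted p = 0.000738), the liver glycogen phosphorylase, and Gckr (-0.35, adjusted p = 0.0107), the inhibitor of glucokinase. The gluconeogenic genes Pck1 (-0.10, adjusted p = 0.894) and G6pc (-0.19, adjusted p = 0.896) did not pass. With the pairs averaged 2 genes of the list were lower. Ppp1r3b (3-week mouse 3 or 5-week mouse 2 or 3) and Gckr (5-week mouse 2 or 4) did not pass when the mouse named in brackets was left out. Lpl, lipoprotein lipase, which newborn liver is known to make and adult liver to silence, was 9.42, 9.36, 9.34 and 9.65 at 3 weeks and 7.98, 6.95, 6.94 and 6.97 at 5 weeks. It fell by 2.23 (adjusted p = 1.6e-10), with 5-week mouse 1 above the other three.

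Among the 15 strongest falls were Fkbp5, Zbtb16 and Plin5. Fkbp5, a well known glucocorticoid target, was 10.62, 10.59, 10.96 and 10.84 at 3 weeks and 9.33, 8.83, 8.34 and 9.49 at 5 weeks (-1.76 ± 0.31, adjusted p = 0.000145). Zbtb16, another such target, was 9.22, 9.11, 10.15 and 10.16 and then 8.80, 6.74, 7.16 and 7.79 (-2.04, adjusted p = 0.00839). The ages did not overlap in either gene, as the rule that picked these 15 falls requires. Plin5, a coat protein of lipid droplets, fell by 1.62 (adjusted p = 0.000738). Fgf21, the fasting hormone of the liver, was 8.15, 8.53, 7.79 and 7.39 at 3 weeks and 7.15, 6.29, 6.50 and 6.37 at 5 weeks (-1.39, adjusted p = 0.00554), and did not pass without 3-week mice 1 and 2 (-1.01, adjusted p = 0.168). Of 31 tested genes of fatty acid oxidation and PPAR-alpha targets, 4 rose beside the fall of Fgf21, with a median of -0.02. They were the acyl-CoA thioesterases Acot3 (2.42), Acot4 (1.42) and Acot2 (0.68) and the fatty acid hydroxylase Cyp4a10 (1.06). Zbtb16 (5-week mouse 2) and Acot2 (5-week mouse 2) did not pass when the mouse named in brackets was left out. Without 3-week mice 1 and 2, 2 of the 31 were higher and none lower. The median change of 17 circadian clock genes was 0.27, and that of 12 genes of one-carbon metabolism -0.03, and no gene of either list passed in the fit of 48 arrays. With only the compared groups in the fit 4 clock genes were higher and 2 lower, and 1 one-carbon gene was lower. Without 5-week mouse 1, 3 clock genes were lower.

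**Figure D3:**
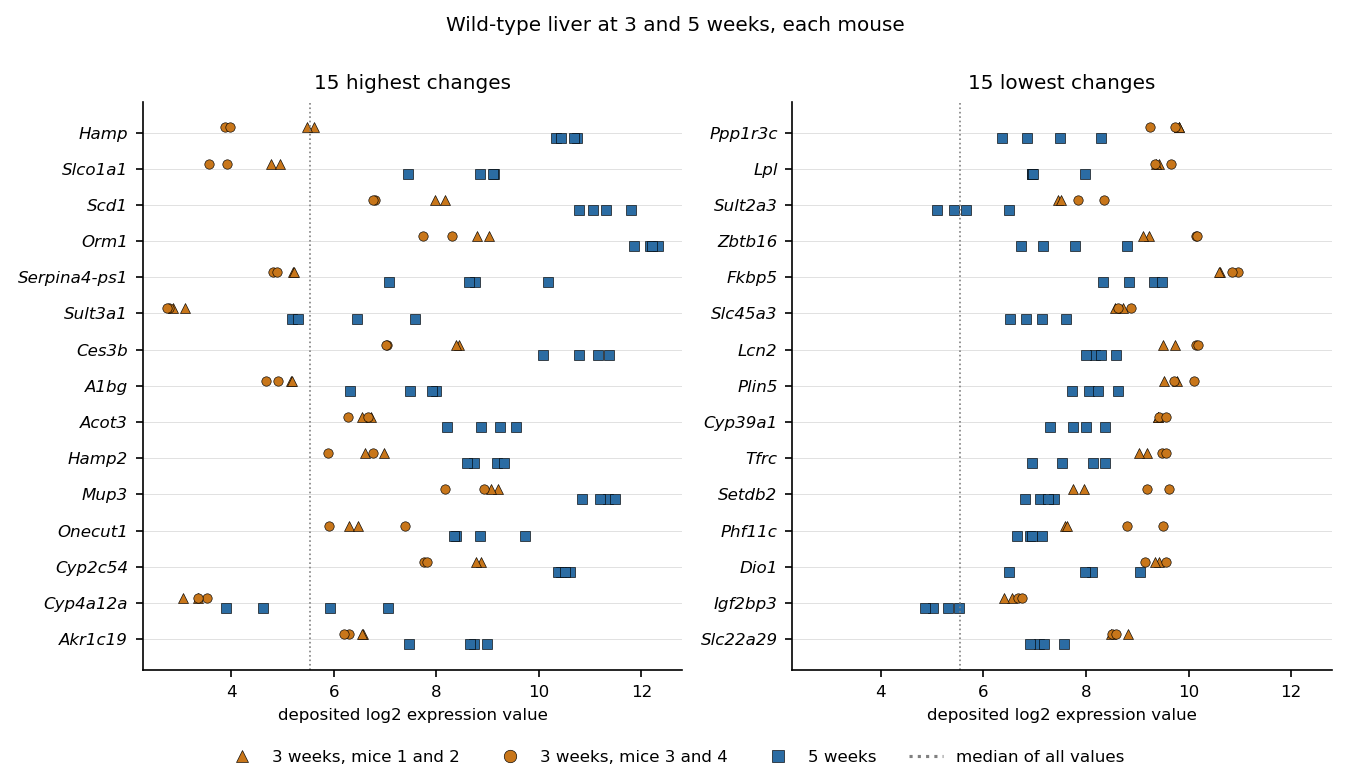
Deposited log2 values of the 15 highest and 15 lowest changes by the naming rule, each point a mouse: 3 weeks (orange, triangles for mice 1 and 2, circles for mice 3 and 4) and 5 weeks (blue squares). The dotted line marks 5.54, the median of all values. The ages do not overlap in any of the 30 genes, as the rule requires.

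Genes with sex-biased expression in adult liver changed in both classes. Of 22 tested genes known as male-biased 8 were higher and none lower in these females, with a median of 0.33. Slco1a1, an uptake transporter for organic anions and steroid conjugates, was 4.78, 4.95, 3.92 and 3.57 at 3 weeks and 7.45, 9.12, 9.11 and 8.85 at 5 weeks. It rose by 4.33 ± 0.32 (at least 20.1-fold, adjusted p = 1.41e-13), with 5-week mouse 1 below the other three. Mup3, a major urinary protein, was 9.21, 9.06, 8.93 and 8.16 and then 10.84, 11.34, 11.48 and 11.19 (2.37, adjusted p = 2.7e-06). Mup21 rose by 1.12 (adjusted p = 7.63e-06), Egfr, the epidermal growth factor receptor, by 1.34 (adjusted p = 0.00153), and Cyp7b1, an oxysterol hydroxylase, by 1.09 (adjusted p = 6.43e-05). Cyp4a12a, a fatty acid hydroxylase with strong male bias, was 3.06 to 3.52 at 3 weeks. At 5 weeks it was 3.90, 4.62, 5.93 and 7.05 (at least 2.06, adjusted p = 0.00108). Its highest 5-week mice alone were above 5.54, the median of all values. The Cyp4a12a mean was 5.38 at 5 weeks and 4.26, 3.91 and 3.92 at 7, 9 and 11 weeks.

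Of 27 tested genes known as female-biased 6 were higher and 3 lower, with a median of 0.08. Sult3a1, a sulfotransferase, was low in the 3-week mice at 3.10, 2.87, 2.78 and 2.75, and at 5.19, 7.59, 6.46 and 5.31 at 5 weeks. It rose by 3.26 ± 0.25 (at least 9.59-fold, adjusted p = 4.28e-13). A1bg, a secreted protein of the immunoglobulin superfamily, was 5.16, 5.19, 4.68 and 4.92 and then 7.49, 8.00, 7.92 and 6.32 (at least 2.45, adjusted p = 3.84e-05). Slc22a26, a member of the organic anion transporter family, rose by 1.52 (7.25 to 8.01 at 3 weeks, 8.94 to 9.29 at 5 weeks, adjusted p = 2.04e-05). Acot3 (adjusted p = 7.5e-05), Cyp2b13 (1.47, adjusted p = 0.000658) and Cyp2b9 (0.75, adjusted p = 0.00177), the last 2 being cytochrome P450 enzymes, completed the higher genes. Cyp3a16, an enzyme of young liver, fell by 2.39, from 8.83 to 9.23 down to 6.89, 8.06, 6.42 and 5.15 (adjusted p = 0.0226). Hao2 (-0.63, adjusted p = 0.0151) and Slc22a27 (-0.74, adjusted p = 0.0442) also fell and are named after their values were seen. None of these 3 passed without 3-week mice 1 and 2, while the 6 higher genes did. Cyp3a16 (3-week mouse 2 or 3 or 5-week mouse 3 or 4), Hao2 (5-week mouse 4) and Slc22a27 (any mouse except 3-week mouse 4) did not pass when the mouse named in brackets was left out.

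Promoters are shown for the 3 higher genes of the female-biased list whose 250-base window held TTCNNNGAA, the pattern of the growth hormone effector STAT5 (RefSeq, GRCm38.p6, 5′ to 3′, match in capitals). Sult3a1 lies at chr10:33857472-33857721 on the plus strand, A1bg at chr15:60921271-60921520 on the minus strand and Slc22a26 at chr19:7802668-7802917 on the minus strand.
Sult3a1: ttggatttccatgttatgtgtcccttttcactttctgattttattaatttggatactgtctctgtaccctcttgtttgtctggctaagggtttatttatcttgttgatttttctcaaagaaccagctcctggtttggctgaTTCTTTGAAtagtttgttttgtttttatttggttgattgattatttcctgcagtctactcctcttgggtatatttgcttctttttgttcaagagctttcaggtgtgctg
A1bg: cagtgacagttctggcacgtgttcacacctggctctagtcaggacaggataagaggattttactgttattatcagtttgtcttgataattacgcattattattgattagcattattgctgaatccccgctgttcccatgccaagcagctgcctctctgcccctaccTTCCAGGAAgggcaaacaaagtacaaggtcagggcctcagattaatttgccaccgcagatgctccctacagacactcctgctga
Slc22a26: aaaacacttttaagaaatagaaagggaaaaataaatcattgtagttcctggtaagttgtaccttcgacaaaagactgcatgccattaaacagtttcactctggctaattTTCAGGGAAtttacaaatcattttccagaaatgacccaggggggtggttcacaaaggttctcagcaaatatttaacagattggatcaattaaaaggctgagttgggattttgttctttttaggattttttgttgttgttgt
The match began 109, 84 and 141 bases before the start of Sult3a1, A1bg and Slc22a26. In all, 3 of 28 promoters of the list held the pattern (10.7%), against 7.0% of all promoters, so the share was close to the background. Of 27 promoters of the growth hormone and IGF list 5 held it (18.5%), those of Bcl6, Igfals and Socs3, none of which passed.

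The growth hormone axis itself changed in a few genes, 4 higher and 3 lower of 20, with a median of 0.02. Onecut1, a hepatocyte transcription factor known to respond to growth hormone, was 6.30, 6.48, 5.90 and 7.38 at 3 weeks and 8.85, 8.39, 8.34 and 9.73 at 5 weeks (2.31 ± 0.39, adjusted p = 6.77e-05). Socs2 and Cish, the feedback inhibitors that growth hormone induces, rose by 1.51 (adjusted p = 0.0265) and 1.19 (adjusted p = 0.0166), but neither passed without 3-week mice 1 and 2. Igfbp2, a binding protein of the insulin-like growth factors, rose from 8.91 to 9.20 up to 9.32 to 10.09 (0.72, adjusted p = 0.0107). Igfbp3, the main carrier of these factors, fell by 0.61 (adjusted p = 0.000195). Igf1 (0.22, adjusted p = 0.287), the receptor Ghr (-0.01, adjusted p = 0.989) and Igfals (0.26, adjusted p = 0.534) did not pass. With the pairs averaged 1 gene of the list was higher and 1 lower. Among hepatocyte transcription factors and hormone receptors 4 of 21 were higher and 1 lower. Beside Onecut1 these were Onecut2 (0.51), Cebpa (0.63) and Nr2f2 (0.46), and the dioxin receptor Ahr, which fell by 0.64 (adjusted p = 2.39e-05). Without 3-week mice 1 and 2, 1 was higher and 1 lower. Dio1, the enzyme that activates thyroid hormone, was 9.15 to 9.56 at 3 weeks and 6.50, 9.05, 8.12 and 7.98 at 5 weeks (-1.46, adjusted p = 0.00543), with 5-week mouse 1 lowest. Socs2 (3-week mouse 2, 3 or 4 or 5-week mouse 1 or 4), Cish (3-week mouse 2 or 3 or 5-week mouse 2 or 4), Igfbp2 (5-week mouse 1), Cebpa (any mouse except 5-week mouse 1), Nr2f2 (3-week mouse 2 or 3 or 5-week mouse 3 or 4) and Dio1 (5-week mouse 1) did not pass when the mouse named in brackets was left out.

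Some enzymes of drug and steroid metabolism rose. Of 33 cytochrome P450 genes of families 1 to 3, 5 were higher and 2 lower, with a median of -0.01, and 6 were higher and none lower without 3-week mice 1 and 2. Cyp2c54 was 8.87, 8.77, 7.76 and 7.81 at 3 weeks and 10.43, 10.60, 10.38 and 10.51 at 5 weeks (2.18 ± 0.23, adjusted p = 5.76e-09). Cyp2c38 was 8.02, 8.23, 8.36 and 8.11 and then 9.82, 9.81, 10.28 and 9.80 (1.75, adjusted p = 4.07e-06). The 5-week mice agreed closely in both genes, while the major adult enzymes Cyp3a11 (-0.01, adjusted p = 0.991) and Cyp2c29 (0.10, adjusted p = 0.806) were already at 11.24 or more in every 3-week mouse. Of 10 carboxylesterase genes 4 were higher and none lower. Ces3b, which hydrolyses triglyceride and xenobiotic esters, was 8.45, 8.38, 7.04 and 7.02 at 3 weeks and 10.08, 11.15, 10.78 and 11.36 at 5 weeks (3.12 ± 0.36, adjusted p = 7.11e-08). Ces1f (1.97), Ces1e (0.93) and Ces2a (0.54) rose too. Of 11 genes of glucuronidation 4 were higher and none lower, with a median of 0.42: Ugt2b37 (1.17), Ugdh (0.80), which makes the glucuronic acid donor, Ugt2b5 (0.69) and Ugt2a3 (0.60). Of 19 glutathione S-transferases 3 were higher and none lower, with a median of 0.14. Gstt2 was 7.58 to 7.78 at 3 weeks and 8.79 to 9.41 at 5 weeks (1.49, adjusted p = 1.05e-07), beside Gstt3 (0.63) and Gstm6 (0.55), and it alone passed with the pairs averaged. Ces2a (any mouse except 3-week mouse 1), Ugt2a3 (3-week mouse 4 or 5-week mouse 2), Gstt3 (3-week mouse 2 or 3 or 5-week mouse 2, 3 or 4) and Gstm6 (3-week mouse 3 or 4 or 5-week mouse 2 or 4) did not pass when the mouse named in brackets was left out. Many of these genes, like the Mup, Orm, Saa and Sult genes, have close copies that a probe set may also detect, so the member that changed is uncertain. Sult2a3, another sulfotransferase with close copies, fell by 2.12 (7.45 to 8.36 at 3 weeks, 5.09 to 6.50 at 5 weeks, adjusted p = 0.00111).

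In bile acid synthesis 1 of 18 genes was higher and 2 lower, where 2.82% of all genes were higher and 3.73% lower. Cyp39a1, an oxysterol hydroxylase, was 9.41, 9.41, 9.43 and 9.57 at 3 weeks and 8.37, 7.74, 7.29 and 8.01 at 5 weeks (-1.60 ± 0.21, adjusted p = 1.19e-06), and Acox2, which shortens the side chain, fell by 0.64 (adjusted p = 0.00507). Cyp7b1 was the gene that rose. Cyp7a1, the rate-limiting enzyme, was 10.16, 10.20, 9.17 and 9.06 and then 9.41, 11.08, 11.17 and 11.42, which overlapped and did not pass (1.12 ± 0.52, adjusted p = 0.224). Of 11 periportal genes 3 were higher and 1 lower. Pigr, the receptor that carries immunoglobulin A into bile, was 9.81 to 10.17 at 3 weeks and 11.45 to 11.62 at 5 weeks (1.59 ± 0.12, adjusted p = 1.41e-13). Ctsc, a lysosomal protease, rose by 0.90 (adjusted p = 3.47e-06) and Cyp2f2 by 0.75 (adjusted p = 0.00079), while the glycine-cleaving enzyme Gldc fell by 1.00 (adjusted p = 0.00529). Of 15 pericentral genes 2 were lower, the vitamin C enzyme Gulo (-0.42) and the amino acid transporter Slc1a4 (-0.79), and none higher.

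Secreted plasma proteins shifted both ways, 3 higher and 9 lower of 26, with a median of -0.27. The higher ones were the orosomucoids, acute-phase carriers of lipophilic compounds. Orm1 was 8.80, 9.02, 8.31 and 7.74 at 3 weeks and 12.17, 12.32, 12.21 and 11.86 at 5 weeks (3.68 ± 0.27, 12.8-fold, adjusted p = 1.25e-13). Orm2 rose by 1.89 (adjusted p = 9.59e-06) and Orm3, named after its values were seen, by 1.35 (adjusted p = 0.000352). Other acute-phase genes fell. Saa4, a constitutive serum amyloid A, was 11.57 to 12.19 and then 10.34 to 10.64 (-1.40, adjusted p = 1.2e-06). Saa1 was 6.56, 7.24, 6.81 and 6.51 and then 5.87, 5.23, 5.33 and 5.21 (-1.37, adjusted p = 0.00414). Lcn2, an iron-scavenging lipocalin made by hepatocytes and neutrophils, was 9.74, 9.51, 10.14 and 10.19 and then 8.59, 8.18, 8.30 and 8.00 (-1.63, adjusted p = 0.000365). Of 18 apolipoprotein genes 1 was higher and 3 lower, where 2.82% of all genes were higher and 3.73% lower. Apoa5, which promotes triglyceride clearance, rose by 0.77 (adjusted p = 0.000202), and Apoa1, the main protein of high density lipoprotein, fell by 0.21 (adjusted p = 0.0402). With the pairs averaged 1 was higher and 1 lower. Apoa1 (any mouse except 3-week mouse 1) did not pass when the mouse named in brackets was left out.

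Collagen and matrix genes fell. Of 21 tested collagen and matrix genes 12 were lower and none higher, with a median of -0.34. Eln, elastin, was 7.73, 7.52, 7.87 and 8.04 at 3 weeks and 6.68, 6.58, 6.77 and 6.65 at 5 weeks (-1.12 ± 0.12, adjusted p = 8.73e-09). Col3a1, a fibrillar collagen, was 9.36, 9.25, 9.39 and 9.54 and then 8.44, 8.34, 8.34 and 8.31 (-1.03 ± 0.12, adjusted p = 4.63e-08). Fstl1 (-0.86), Sparc (-0.82) and Col1a1 (-0.60) fell as well. The list mean was 7.58 to 7.76 at 3 weeks and 7.24 to 7.30 at 5 weeks. In whole liver, fewer cells of a type and less RNA per cell cannot be told apart. Without 3-week mice 1 and 2, 11 were lower and 1 higher, and with the pairs averaged 8 were lower. Of 12 stellate cell genes, which mark the main matrix producers of the liver, Reln (-0.52), Vim (-0.39) and Ecm1 (-0.28) were lower and none higher, while the stellate retinoid enzyme Lrat differed by 0.06 (adjusted p = 0.911). Over all genes 3.73% were lower. With the pairs averaged 1 stellate gene was lower. Vim (3-week mouse 2 or 4 or 5-week mouse 3 or 4) and Ecm1 (3-week mouse 1, 3 or 4 or 5-week mouse 1 or 2) did not pass when the mouse named in brackets was left out.

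Markers of the sinusoidal endothelium fell too, with 7 of 15 lower, none higher and a median of -0.33. Lyve1, a hyaluronan receptor, was 8.26, 7.99, 7.89 and 7.72 and then 6.92, 7.11, 6.56 and 6.64 (-1.16 ± 0.16, adjusted p = 3.27e-06). The scavenger receptor Stab2 (-0.52), Ehd3 (-0.51), Oit3 (-0.46) and the angiopoietin receptor Tek (-0.42) were also lower, while Stab1 (-0.16, adjusted p = 0.339), Kdr (-0.25, adjusted p = 0.255) and Clec4g (-0.33, adjusted p = 0.21) did not pass. Of these 15, 4 were lower without 3-week mice 1 and 2 and 4 with the pairs averaged. Neutrophil granule genes were lower in 8 of 14, with a median of -0.57. Ngp was 6.08, 6.04, 6.24 and 6.00 and then 4.70, 4.73, 5.03 and 4.64 (-1.32 ± 0.20, adjusted p = 8.08e-06), and S100a8 was 5.56, 5.53, 5.99 and 5.83 and then 4.55, 4.34, 4.56 and 5.12 (-1.09, adjusted p = 0.00123). Lcn2, S100a9 (-0.87) and Ltf (-0.79) fell with them. At 5 weeks Ngp and S100a8 were below 5.54, the median of all values, in every mouse, so they may lie at background. The sizes of these falls are therefore lower bounds. At 3 weeks S100a8 also lay near 5.54. Of the 14 neutrophil genes, 6 were lower without 3-week mice 1 and 2, and 4 with the pairs averaged. No gene of the resident Kupffer cell list (9 tested, median -0.07) or the general macrophage list (14 tested, median -0.05) passed. Among 14 red cell precursor genes Car1 was higher (0.54) and Car2 lower (-0.59), and neither passed without 3-week mice 1 and 2. Oit3 (5-week mouse 4), Car1 (3-week mouse 3 or 4 or 5-week mouse 2 or 4) and Car2 (3-week mouse 2 or 5-week mouse 4) did not pass when the mouse named in brackets was left out.

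A few genes of the fetal and neonatal programme fell. Of 9 tested genes 3 were lower, none higher: Lpl, Igf2bp3 and Cd24a. Igf2bp3, an RNA-binding protein of fetal tissue, was 6.56, 6.41, 6.68 and 6.76 at 3 weeks and 5.02, 5.31, 4.87 and 5.53 at 5 weeks (-1.42 ± 0.15, adjusted p = 5.76e-09). Cd24a, a surface protein of immature cells, fell by 1.00 (adjusted p = 0.000466). Afp, alpha-fetoprotein, was 5.38, 5.28, 7.48 and 5.65 and then 5.07, 5.46, 5.33 and 4.83, with 3-week mouse 3 alone high, and did not pass (-0.77, adjusted p = 0.0977), though it passed without 3-week mice 1 and 2 (-1.39, adjusted p = 0.00359). Of 14 imprinted growth genes 4 were lower. Grb10, a brake on insulin signalling, was 7.48 to 7.63 and then 6.59 to 6.92 (-0.85 ± 0.10, adjusted p = 7.11e-08), and Mest fell by 1.01 (adjusted p = 6.28e-05). Cdkn1c (-0.45) and Sgce (-0.41) did not pass without 3-week mice 1 and 2. Cdkn1c (any mouse except 5-week mouse 2) and Sgce (any mouse except 5-week mouse 2) did not pass when the mouse named in brackets was left out.

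Of 48 tested cell cycle genes 5 were lower and 1 higher, with a median of -0.12, where 3.73% of all genes were lower and 2.82% higher. The number lower ran from 1 to 5 with single mice left out, and no gene of the list passed without 3-week mice 1 and 2 or with the pairs averaged. Top2a (-0.62), Rrm2 (-0.57), Mcm7 (-0.56) and Bub1 (-0.54) were among the lower, and Ccnd1, the G1 cyclin, was the higher gene (0.87, adjusted p = 0.0318). Mki67, the proliferation marker, was 5.90 to 6.12 at 3 weeks and 5.21 to 5.73 at 5 weeks (-0.47, adjusted p = 0.0674). Top2a (3-week mouse 3 or 4 or 5-week mouse 3 or 4), Rrm2 (3-week mouse 2 or 4 or 5-week mouse 3), Mcm7 (3-week mouse 4 or 5-week mouse 3), Bub1 (3-week mouse 2 or 3 or 5-week mouse 1 or 4) and Ccnd1 (3-week mouse 2, 3 or 4 or 5-week mouse 1, 2 or 4) did not pass when the mouse named in brackets was left out. The letters CCAAT (both strands) stood in 73.9% of 46 promoters of the list against 33.8% of all promoters, and TTTGAA (both strands) in 15 of the 46 against 5252 of 32851.

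Among the remaining strong changes, Serpina4-ps1, annotated as a pseudogene, was 4.82 to 5.22 at 3 weeks and 7.07, 8.75, 8.64 and 10.17 at 5 weeks (at least 3.62 ± 0.58, adjusted p = 3.32e-05). Akr1c19, an aldo-keto reductase, rose by 2.06 (adjusted p = 4.58e-05). Setdb2 was 7.75, 7.97, 9.61 and 9.20 and then 6.82, 7.11, 7.37 and 7.26 (-1.50, adjusted p = 0.00188). Phf11c was 7.60, 7.63, 9.50 and 8.81 and then 6.90, 6.66, 7.14 and 6.94 (-1.47, adjusted p = 0.00776), a call lost without 3-week mouse 3. In both genes 3-week mice 3 and 4 were far above mice 1 and 2. The transporters Slc22a29 (-1.41, adjusted p = 9.38e-06) and Slc45a3 (-1.68, adjusted p = 0.000908) fell. Of the 30 strongest named changes 27 passed with the 3-week pairs averaged.

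The 12 groups of the age series, from 1 to 11 weeks, show where this interval stands in the course of single genes in wild-type mice. Hamp was 4.54 ± 0.81 (SD, n = 4) at 1 week and 4.74 ± 0.94 at 3 weeks, and from 5 weeks on its means stayed between 10.55 and 11.43. Cyp2c54 was higher at each of the first ages, 6.11 ± 0.59 at 1 week, 8.30 ± 0.60 at 3 weeks and 10.48 ± 0.10 at 5 weeks, and was 10.51 ± 0.10 at 11 weeks. Sult3a1 was 2.81 at 1 week and 2.88 at 3 weeks, then 6.14, 8.05, 8.30 and 8.84 at 5, 7, 9 and 11 weeks, so its 5-week mean was below all later ones. Col3a1 was lower at each later age, from 10.05 ± 0.26 at 1 week to 7.55 ± 0.20 at 11 weeks. A few genes instead had their highest mean at 3 weeks. Fkbp5 was 9.61 at 1 week, 10.75 at 3 weeks and 9.00 at 5 weeks, and Zbtb16 was 6.84, 9.66 and 7.63. Ppp1r3c was 8.16, 9.65 and 7.25, and Saa4 was 8.99, 11.85 and 10.46. Sqle was lowest at 3 weeks (6.27 ± 0.65), with 7.86 ± 0.23 at 1 week and 7.51 to 7.96 from 5 weeks on. Onecut1 was lowest there as well, 7.46 at 1 week, 6.51 at 3 weeks and 8.83 at 5 weeks, its highest mean. At 7, 9 and 11 weeks Onecut1 was 7.21, 7.78 and 7.45.

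**Figure D4:**
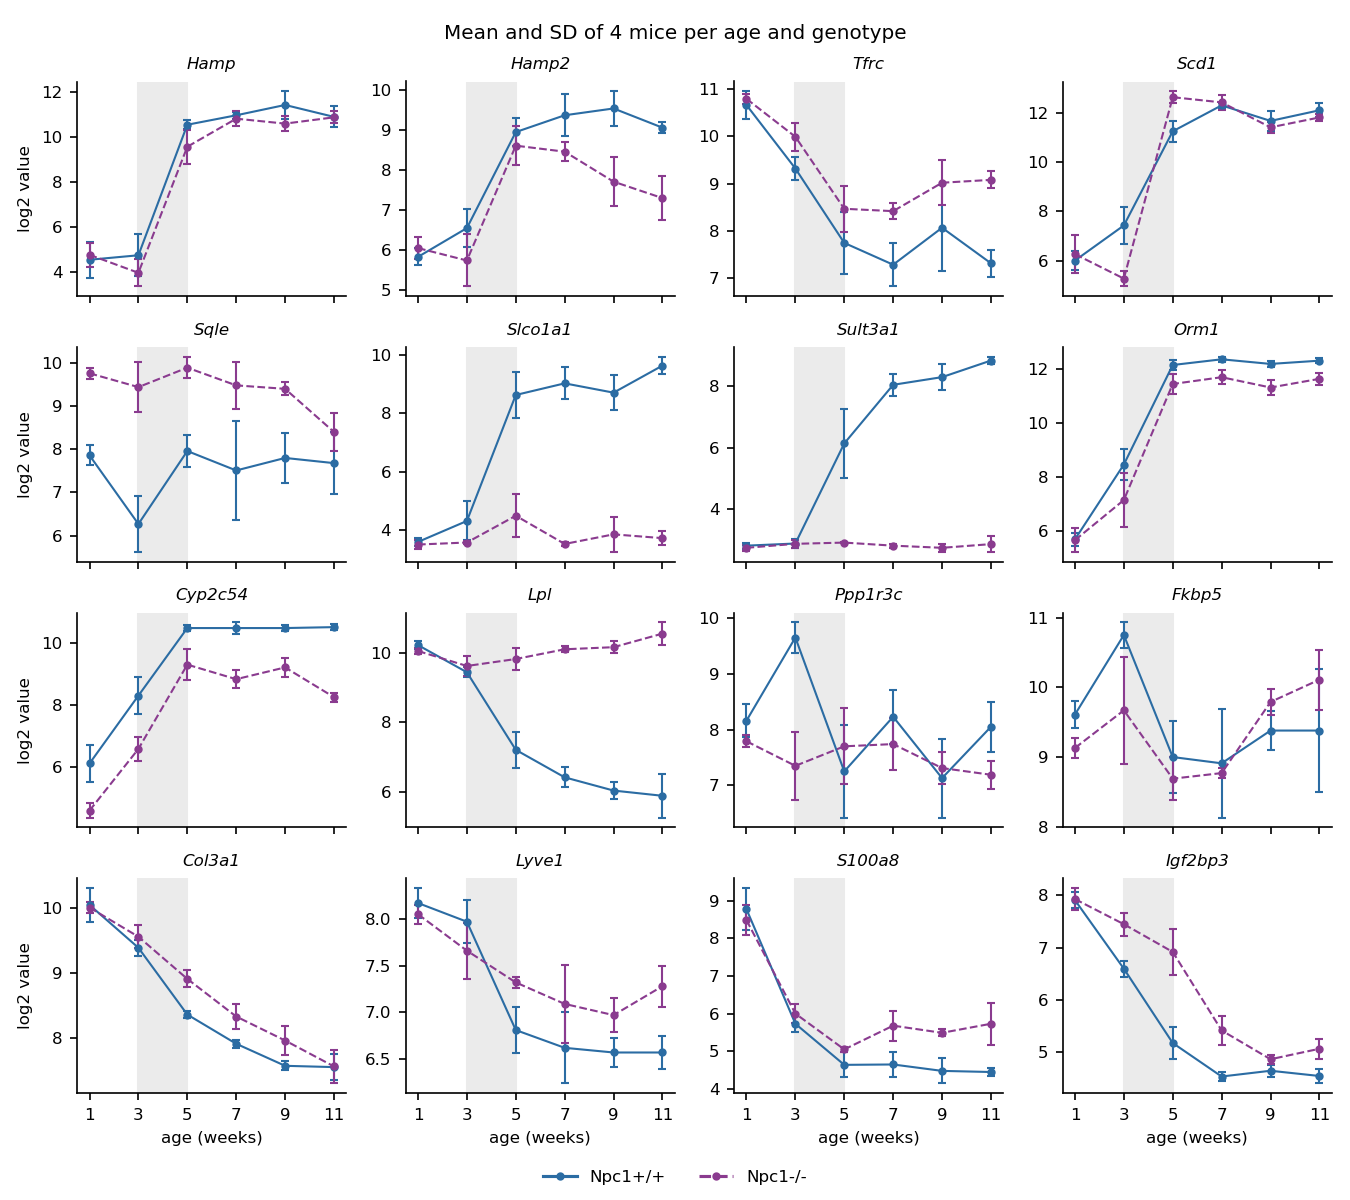
Mean log2 value with SD (error bars, 4 mice) of 16 genes at 1 to 11 weeks in Npc1+/+ (solid) and Npc1-/- (dashed) liver, with the interval from 3 to 5 weeks shaded. Hamp steps from 4.74 to 10.55 in wild-type mice inside the shaded interval, while Lpl at 5 weeks is 7.21 in wild-type and 9.82 in Npc1-/- mice.

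In Npc1-/- liver 663 genes (5.25%) changed between the same ages, 423 higher (3.35%) and 240 lower (1.90%). The number called in both genotypes in the same direction was 223, which is 26.9% of the wild-type calls and 33.6% of the Npc1-/- calls, and 2 were called in opposite directions. Both comparisons came from the same fit with a shared estimate of each gene's spread, so their calls are not independent. Of the 828 wild-type calls 82.1% had the same sign in Npc1-/- liver, against 56.2% of all genes. Across 12638 genes, which are not independent replicates, the changes correlated at r = 0.46. Hamp rose by 5.61 and Orm1 by 4.28 in Npc1-/- liver, close to the wild-type changes of 5.81 and 3.68, and Tfrc fell by 1.53 against 1.58. Pigr rose by 1.52 against 1.59.

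A test of the difference in change between the genotypes called 101 genes (0.799%), 53 of them among the wild-type calls. Scd1 rose by 7.34 in Npc1-/- liver, from 4.88 to 5.66 at 3 weeks up to 12.29 to 12.86 at 5 weeks, which was 3.54 ± 0.38 more than in wild-type liver (adjusted p = 1.01e-07). Its 3-week Npc1-/- values lay near or below 5.54, the median of all values, so both sizes are lower bounds. Slco1a1 was 3.49 to 3.61 at 3 weeks and 3.68 to 5.24 at 5 weeks in Npc1-/- mice, a change of 0.91 that did not pass (adjusted p = 0.0924) and a difference in change of -3.41 ± 0.45 (adjusted p = 5.58e-06). Sult3a1 stayed low in Npc1-/- mice, 2.71 to 3.01 and 2.89 to 2.92, a difference of -3.22 ± 0.35 (adjusted p = 1.01e-07). Lpl was 9.32 to 9.96 and 9.52 to 10.23 in Npc1-/- mice, a difference of 2.44 ± 0.29 (adjusted p = 6.89e-07). Ppp1r3c was already at 6.73 to 8.19 in 3-week Npc1-/- mice and 7.04 to 8.62 at 5 weeks, a difference of 2.75 ± 0.46 (adjusted p = 0.000694). Igfbp2 fell by 0.75 in Npc1-/- mice and rose in wild-type mice, a difference of -1.46 ± 0.26 (adjusted p = 0.00161). These 6 differences kept an adjusted p under 0.05 with any single array left out and without 3-week wild-type mice 1 and 2. Those of Onecut1 (-2.17, adjusted p = 0.0446), Serpina4-ps1 (-3.24, adjusted p = 0.0445), Aqp8, a water channel (2.01, adjusted p = 0.0445), and Saa1 (1.86, adjusted p = 0.0353) did not pass without mice 1 and 2. Over all genes 34 passed without these mice, 27 of them among the 101.

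**Figure D5:**
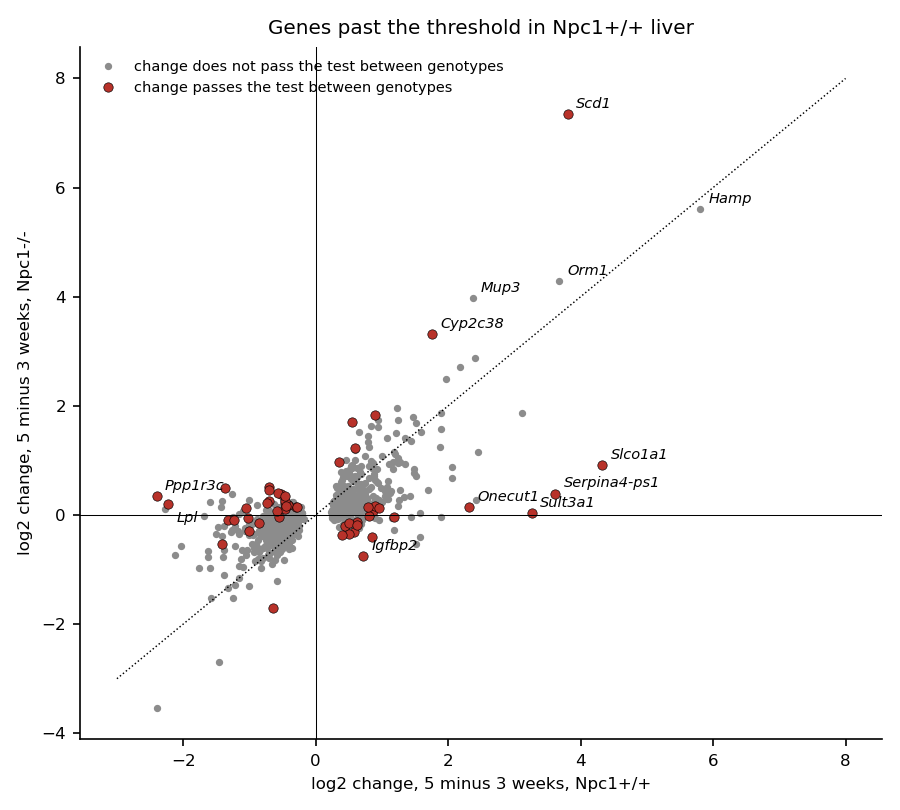
Log2 change from 3 to 5 weeks in Npc1+/+ (horizontal) and Npc1-/- (vertical) liver for the 828 genes called in Npc1+/+ liver; the dotted line marks equal changes and red points the 53 genes whose change also passed the test between genotypes. Hamp and Orm1 lie near the line, Scd1 above it and Slco1a1 below it, and Sult3a1 changes by 0.04 in Npc1-/- liver.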

How the data were processed

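Liver RNA, purified by TRIzol and RNeasy, was labelled as biotinylated cRNA and measured on an Affymetrix mouse array. The authors deposited a log2 value for each of 35556 probe sets and array. Per the submitters' processing notes RMA and Partek 6.5 were used, in unnamed roles, and how arrays were scaled to one another is not given in the sources used here. A platform table gave 1 gene symbol for 21789 probe sets, several for 1621 and none for 12146. For each of 19938 genes the probe set that was highest on average over the 78 arrays was used. Genes above 5.54 in at least 4 of the 48 age series arrays were tested (12638).

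Changes were fitted with limma 3.58.1 (R 4.3.3, lmFit and eBayes, 1 mean per group, two-sided, Benjamini-Hochberg). The fit was tested on simulated data. The number of arrays limits the precision, and depth does not apply. Promoters came from RefSeq (GRCm38.p6) by symbol. The array annotation names no genome build.

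Named genes are the 15 highest and 15 lowest wild-type changes that passed with and without 3-week mice 1 and 2 and did not overlap between the ages. Added to these are up to 5 members of each list with the largest change past the threshold, members that did not pass where a list needs them, and the 5 highest and 5 lowest interactions past the threshold. Clone names were left out. Genes, lists and comparisons were chosen with earlier results of these data known. The alternatives were other thresholds, filters, scalings and fits, the replicate number as a block and arrays left out, and their effects are given at the end.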

Additional observations from a re-analysis of the deposited data

Results flagged for a closer look

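Among 240 sets of 4 mice checked for a mouse far from the other 3 of its age, 18 (7.5%) had one, where chance gives about 5% in independent sets. These sets are genes of the same livers and means of lists that hold some of them. They are not independent, so the share cannot be weighed against chance. Mouse 1 of the 5-week group stood apart in 8 of them. Its values were low for Msmo1 (10.06, others 11.01 to 11.11), Hmgcs1 (9.72, others 10.31 to 10.37), Slco1a1 (7.45, others 8.85 to 9.12) and Cyp2f2 (11.75, others 12.09 to 12.11). They were high for Lpl (7.98, others 6.94 to 6.97), Mest (5.90, others 5.14 to 5.21), the acinar gene Cela2a (6.76, others 5.99 to 6.08) and the mean of the acinar list (5.79, others 4.88 to 4.99). The part of acinar RNA in the other values of this mouse was not tested.

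Among the other 5-week mice, mouse 3 was high for Cyp2c38 (10.28, others 9.80 to 9.82), Col1a1 (8.38, others 8.10 to 8.14) and the mean of the collagen list (7.30, others 7.24 to 7.25), and mouse 4 for Cyp4a10 (10.86, others 10.71 to 10.72). At 3 weeks mouse 4 was low for Acot4 (8.49, others 8.76 to 8.78), Ppp1r3c (9.25, others 9.73 to 9.82) and Cyp2f2 (11.03, others 11.32 to 11.37) and high for Cyp39a1 (9.57, others 9.41 to 9.43). Mouse 3 of that age was low for Socs2 (6.78, others 7.19 to 7.26) and high for Afp (7.48, others 5.28 to 5.65). The narrow spread of the other 3 mice makes some of these gaps small on the log2 scale.

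The change from 3 to 5 weeks differed between the genotypes by limma's interaction test in 13 genes named above. The change in Npc1-/- liver exceeded that in wild-type liver for Scd1 (by 3.54), Ppp1r3c (2.75), Lpl (2.44), Aqp8 (2.01), Saa1 (1.86), Cyp2c38 (1.57), Igf2bp3 (0.89) and Pygl (0.60). It was smaller for Slco1a1 (-3.41), Serpina4-ps1 (-3.24), Sult3a1 (-3.22), Onecut1 (-2.17) and Igfbp2 (-1.46). Of these, Scd1, Lpl, Ppp1r3c, Sult3a1, Slco1a1 and Igfbp2 passed without any single array.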

How the results depend on the processing

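The wild-type count of 828 was 915 after quantile normalization, 751 with arrays centred on their medians, 721 with no filter and 577 without 3-week mice 1 and 2. It was 419 at a threshold of 0.01, 120 at 2-fold and 1294 with array weights. Of the alternatives chosen after seeing the data, it was 320 with 3-week pairs averaged, 384 without 3-week mice 3 and 4 together and 651 without 3-week mice 1 and 2 and 5-week mouse 1. Leaving out 1 array gave 516 (without 5-week mouse 4) to 997 (without 5-week mouse 1). In Npc1-/- liver the count of 663 was 353 at 0.01, 78 at 2-fold, 330 with only the compared groups in the fit, and 437 to 664 with 1 array left out. The count of 101 for the interaction was 28 at 0.01, 30 at 2-fold, 25 with pairs averaged, 192 with all 78 arrays, 322 with array weights, 65 with no filter, 35 with only the compared groups, 34 without 3-week mice 1 and 2, 49 without these and 5-week mouse 1, and 33 to 220 with 1 array left out. Quantile normalization moved the share of higher calls from 63.8% to 52.3% in Npc1-/- liver and from 71.3% to 55.0% in the interaction. The cause of these shifts was not tested.

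The deviations of same-numbered mice from their group means correlated across genes at 0.11, 0.09, 0.32 and 0.03 for wild-type replicates 1 to 4 and at -0.05, 0.17, -0.02 and -0.24 for Npc1-/- replicates. Not every value was over 0.1, and the labels name nothing shared, so the numbers were not taken as pairs. With the replicate block 806 genes passed in wild-type liver, 312 in Npc1-/- liver and 26 in the interaction. Among 17 circadian clock genes of wild-type liver 4 were then higher and 2 lower, and no acinar gene passed.

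Of 136 named genes in wild-type liver, 83 kept the call with pairs averaged, which cannot alter direction, and 53 lost it. Without 3-week mice 1 and 2, 102 kept direction and call, 32 lost the call, and the acinar genes Cela2a (0.06) and Ctrl (0.22) reversed. Quantile normalization and centring cost 5 and 4 calls. With 4 mice per age and no detection calls, changes of genes near background are limited to lower bounds.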
